A study of Homo sapiens with 4 samples.

Results

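The glucose and lactate carriers described here are 10 genes, taken by gene symbol from the 17215 genes of the deposited table. They are 8 members of the SLC2A family of facilitative sugar carriers, SLC2A1, SLC2A3, SLC2A14, SLC2A6, SLC2A8, SLC2A10, SLC2A12 and SLC2A13, and 2 monocarboxylate carriers, SLC16A1 and SLC16A3. Polyadenylated RNA was compared between 2 libraries of Cal51R, a doxorubicin-resistant cell line, and 2 libraries of Cal51, the human triple-negative breast cancer line it is set against. The study asked which genes, deubiquitinases in the first place, go with resistance to doxorubicin. Both lines are established cultures without a transgene in their labels. The sources used here do not state whether Cal51R is 1 clone or a pool, whether doxorubicin was present at harvest, or whether replicate libraries were grown apart. The p-values thus reflect differences among these 4 libraries, and their spread may be technical.

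Facilitative glucose carriers let hexoses cross a membrane down their gradient, and hexokinases then trap glucose in the cell by phosphorylation. Glycolysis turns that glucose into pyruvate, and lactate dehydrogenase turns pyruvate into lactate. Monocarboxylate carriers move lactate together with a proton across the plasma membrane, in either direction, and need a small chaperone protein, usually basigin, to reach it. Many breast tumours are known for a high uptake of glucose and release of lactate.

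The libraries held 17852379 and 19854849 reads in Cal51R and 21636996 and 18537714 reads in Cal51, so that a count of 3 reads stood for 0.139 to 0.174 CPM (reads scaled to the size of the library). Replicates correlated across genes at 0.996 in Cal51R and 0.997 in Cal51, and no library stood apart from its line. Of 6 epithelial and mesenchymal genes, KRT8, KRT18, EPCAM and the mesenchymal gene VIM were abundant in both lines, EPCAM at 122 and 130 TPM (a level per transcript length, scaled to the same total in each library) in Cal51R and 260 and 245 TPM in Cal51. VIM was at 438 and 469 TPM in Cal51R and 561 and 579 TPM in Cal51. The other 2 differed from these, since the epithelial cadherin gene CDH1 was at 0.88 and 1.62 TPM in Cal51R and 0.56 and 0.42 TPM in Cal51, and KRT19 at 148 and 149 TPM in Cal51R and 5.55 and 5.10 TPM in Cal51. The oestrogen receptor gene ESR1 was at 1.27 and 2.09 TPM in Cal51R and 1.15 and 0.76 TPM in Cal51, ERBB2 was at 90.9 and 83.6 TPM in Cal51R and 83.9 and 79.4 TPM in Cal51, and PGR was not analysed here. Summed markers of other cell types were at 3.44 and 4.42 TPM in Cal51R and 18.9 and 19.4 TPM in Cal51 for 5 leukocyte genes, at 93.1 and 104 TPM in Cal51R and 33.1 and 29.3 TPM in Cal51 for 3 endothelial genes, and at 192 and 200 TPM in Cal51R and 717 and 625 TPM in Cal51 for 4 fibroblast genes. PECAM1 made most of the endothelial sum and COL1A2 most of the fibroblast sum, where DCN and LUM had at most 4 reads in any library. None of these markers was at 0 in all 4 libraries, and their part in the results was not tested. In bulk RNA, fewer cells expressing a gene and less of its RNA per cell cannot be told apart.

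Of the 10 carriers, 8 had enough reads to be tested across all genes, and 7 of those passed at an adjusted p under 0.05 (edgeR's quasi-likelihood test with Benjamini-Hochberg adjustment over 13674 genes). Passing was common in this comparison, at 70.8% of all genes tested. In Cal51R, 6 carriers fell, where 35.5% of all genes fell, and 1 rose, where 35.3% of all genes rose. Of the 6 that fell, 5 fell at least 2-fold, a size reached by 9.87% of all genes. In 7 of the 8 the libraries of the lines did not overlap in CPM, as in 85.0% of all genes. The median log2 fold change of the 8 was -1.59, against 0.02 over all genes tested. SLC2A3 entered the test only through its reads in Cal51, so these counts describe the carriers with enough reads and not all 10. SLC2A10 and SLC2A14, the other 2, had at most 11 reads in any library.

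**Figure D1:**
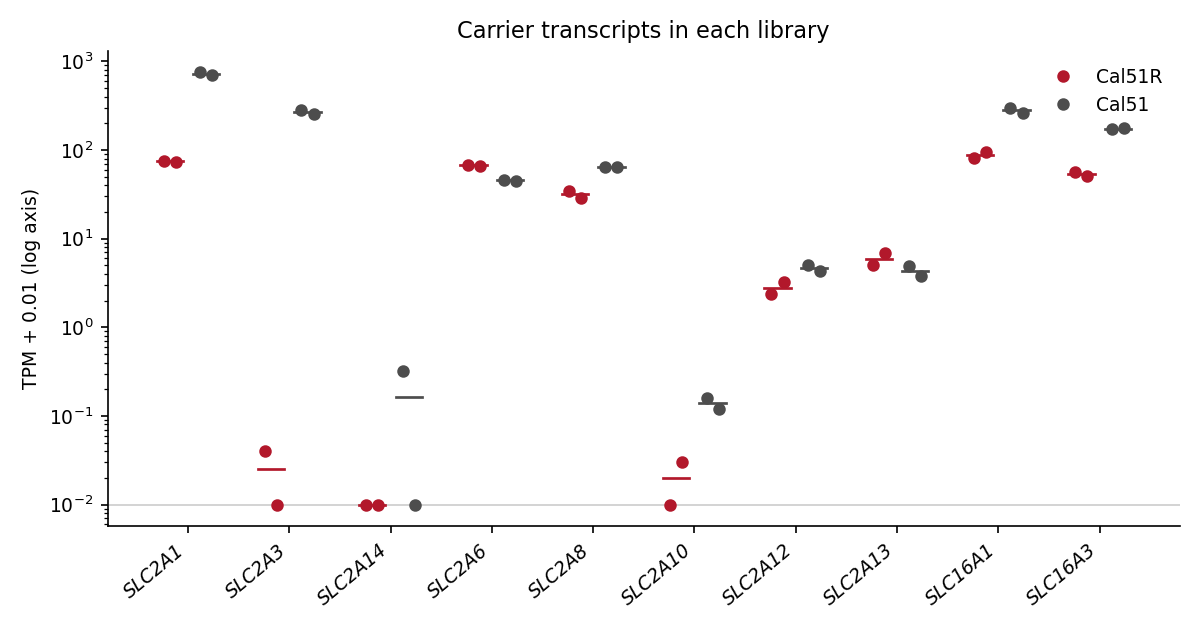
TPM of the 10 carriers in each library, on a log axis after adding 0.01 TPM, with Cal51R left of Cal51; dots are libraries and lines are means of 2. SLC2A1 is at 73.5 to 75.3 TPM in Cal51R and 693 to 751 TPM in Cal51, and SLC2A3 at 0 to 0.03 TPM in Cal51R and 254 to 283 TPM in Cal51.

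SLC2A1 encodes GLUT1, the carrier of basal glucose uptake in most tissues and cultured cells. It had 1988 and 2066 reads in Cal51R, against 23783 and 19592 reads in Cal51. These correspond to 75.3 and 73.5 TPM in Cal51R and 751 and 693 TPM in Cal51, so that both Cal51R libraries were far below both Cal51 libraries. SLC2A1 fell by 3.52 on the log2 scale (SE 0.08, 95% confidence interval -3.70 to -3.34, edgeR adjusted p = 3.42e-15), an 11.5-fold lower level. It ranked 265 from the lowest fold change among the 13674 genes tested. By TPM it ranked 2637 and 2794 among the 17215 genes in Cal51R and 170 and 181 in Cal51.

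SLC2A3 encodes GLUT3, a high-affinity glucose carrier best known from neurons. It had 1 and 0 reads in Cal51R, against 10163 and 8144 reads in Cal51. Its TPM was 0.03 and 0 in Cal51R and 283 and 254 in Cal51, where it ranked 581 and 669 among all genes. The gene was thus abundant in both Cal51 libraries and at the limit of detection in both Cal51R libraries. Summed over the libraries, its share of reads was 19730 times higher in Cal51 than in Cal51R, with an exact 95% counting interval of 3541 to 779300 that rests on the 1 read. With 1 read in Cal51R its fitted fold change depends on the prior count, so the gene is described by its reads.

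SLC2A14 encodes GLUT14, the product of a duplication of SLC2A3 that lies beside it on chromosome 12 and is known from testis. The coding sequences of the pair are shown because they bear on how reads could be shared out between them. In GENCODE 29 the longest open reading frames are 1491 bases in SLC2A3 and 1608 bases in SLC2A14, and over 1491 aligned bases they are 96.8% identical. The lines below give 120 aligned coding bases of each, 5′ to 3′, from base 9 of SLC2A3 and base 126 of SLC2A14, with the 6 bases that differ in capitals.
SLC2A3: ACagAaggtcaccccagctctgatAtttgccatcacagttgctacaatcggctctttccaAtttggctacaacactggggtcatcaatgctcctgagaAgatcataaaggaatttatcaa
SLC2A14: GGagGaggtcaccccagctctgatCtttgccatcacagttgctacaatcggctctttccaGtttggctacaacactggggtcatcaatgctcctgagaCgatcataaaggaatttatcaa
Of the 3866 stretches of 50 bases in the SLC2A3 transcript, 888 (23.0%) also stand in a transcript of SLC2A14, and of its 3816 stretches of 100 bases, 269 (7.05%) do. None stands in SLC2A1, whose coding sequence is 70.6% identical to that of SLC2A3 over 1412 aligned bases.

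The deposited table gave SLC2A14 0 reads in both Cal51R libraries, and 11 and 0 reads in Cal51. With no filter on low counts its adjusted p was 0.00593 in edgeR and 0.417 in DESeq2, so it is reported as uncertain. The sum of both genes does not depend on how their reads were shared out. It came to 1 read in Cal51R and 18318 reads in Cal51, a ratio of 19740 for Cal51 over Cal51R (95% counting interval 3543 to 779800).

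SLC2A12 and SLC2A10 encode GLUT12 and GLUT10, 2 further glucose carriers, the last known from its mutation in arterial tortuosity syndrome. SLC2A12 had 95 and 125 reads in Cal51R, against 205 and 162 reads in Cal51, without overlap. It fell by 0.85 on the log2 scale (SE 0.15, edgeR adjusted p = 0.000107), a 1.80-fold lower level, at 2.35 and 3.21 TPM in Cal51R and 5.06 and 4.33 TPM in Cal51. SLC2A10 was close to the limit of detection everywhere, with 0 and 1 reads in Cal51R and 6 and 5 reads in Cal51. Its share of reads was 11.9 times higher in Cal51 (95% counting interval 1.72 to 510). With no filter on low counts its adjusted p was 0.028 in edgeR and 0.143 in DESeq2.

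SLC2A6 and SLC2A8 encode GLUT6 and GLUT8, carriers that reside mostly on membranes inside the cell, such as those of lysosomes. SLC2A6 had 1268 and 1355 reads in Cal51R, against 1032 and 893 reads in Cal51. Of the 8 carriers tested with TMM scaling and all 4 libraries it alone rose, by 0.34 on the log2 scale (SE 0.08, 95% confidence interval 0.16 to 0.52, edgeR adjusted p = 0.0016), or 1.27-fold. Its TPM was 67.1 and 66.6 in Cal51R and 46.3 and 44.4 in Cal51. SLC2A8 moved the other way, with 490 and 463 reads in Cal51R and 1144 and 1004 reads in Cal51. It fell by 1.28 on the log2 scale (SE 0.10, edgeR adjusted p = 9.31e-09), a 2.42-fold lower level, at 34.2 and 28.6 TPM in Cal51R and 64.7 and 64.6 TPM in Cal51.

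SLC2A13 encodes HMIT, which carries myo-inositol together with protons rather than glucose. It had 285 and 380 reads in Cal51R, against 315 and 229 reads in Cal51, and the lines overlapped, at 15.1 and 17.6 CPM in Cal51R and 15.5 and 13.3 CPM in Cal51. It did not pass, with a log2 fold change of 0.18 (95% confidence interval -0.08 to 0.44, edgeR adjusted p = 0.198), an interval of 0.946-fold to 1.36-fold. It passed when scaled by library totals, at a log2 fold change of 0.38 (adjusted p = 0.012), and when Cal51R replicate 1 was left out, at 0.28 (adjusted p = 0.0419).

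The monocarboxylate carriers SLC16A1 and SLC16A3 encode MCT1, which takes up or releases lactate, and MCT4, known for lactate release from glycolytic cells. SLC16A1 had 2379 and 2980 reads in Cal51R, against 10349 and 8279 reads in Cal51. It fell by 1.91 on the log2 scale (SE 0.08, edgeR adjusted p = 2.39e-12), a 3.75-fold lower level, with 80.9 and 95.3 TPM in Cal51R and 294 and 264 TPM in Cal51. SLC16A3 had 1010 and 1002 reads in Cal51R, against 3774 and 3466 reads in Cal51. Its log2 fold change was -1.95 (SE 0.09, edgeR adjusted p = 5.67e-12), a 3.88-fold lower level, with 56.4 and 51.4 TPM in Cal51R and 173 and 176 TPM in Cal51. The confidence intervals of the 2 fold changes, -2.07 to -1.74 for SLC16A1 and -2.14 to -1.77 for SLC16A3, overlapped almost entirely. The TPM of SLC16A1 over that of SLC16A3 was 1.44 and 1.85 in Cal51R and 1.70 and 1.50 in Cal51, overlapping between the lines.

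**Figure D2:**
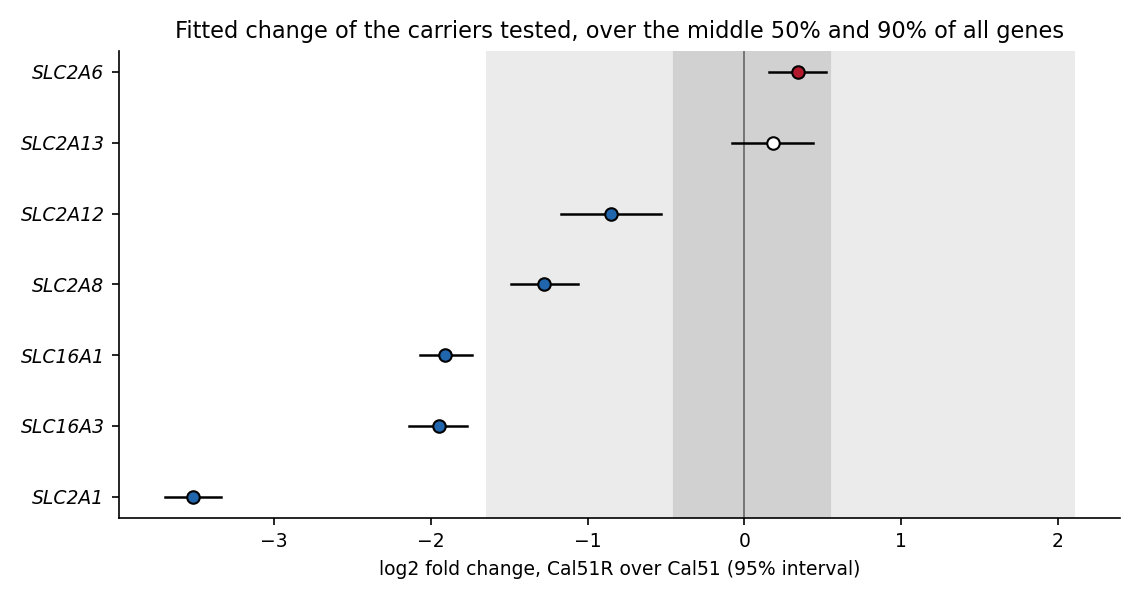
Log2 fold changes (Cal51R over Cal51) of 7 of the 8 tested carriers with 95% confidence intervals, on bands that hold the middle 50% (-0.45 to 0.55) and 90% (-1.64 to 2.11) of all genes tested; filled points passed (red rose, blue fell) and the open point did not. SLC2A1, SLC16A1 and SLC16A3 lie below the wider band, SLC2A6 lies above 0, and SLC2A3 is left out because with 1 read in Cal51R its fitted value depends on the prior count.

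The order of the carriers by TPM, which is a level per length, differed between the lines. In Cal51R, SLC16A1 was highest with a mean of 88.1 TPM, then SLC2A1 with 74.4, SLC2A6 with 66.8, SLC16A3 with 53.9, SLC2A8 with 31.4, SLC2A13 with 5.92 and SLC2A12 with 2.78. None of these neighbours overlapped in their 2 libraries. SLC2A10, SLC2A3 and SLC2A14 came last, at or near 0. In Cal51, SLC2A1 led with 722 TPM, SLC16A1 and SLC2A3 followed with overlapping levels of 279 and 269 TPM, and then came SLC16A3 with 174, SLC2A8 with 64.6 and SLC2A6 with 45.4 TPM. SLC2A12 and SLC2A13 overlapped there at 4.70 and 4.35 TPM, above SLC2A14 and SLC2A10 near 0. GLUT1 RNA stood 1.12 and 1.10 times above GLUT6 RNA in Cal51R, and 16.2 and 15.6 times above it in Cal51.

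Summed over the 13 SLC2A genes of the table, the level was 197 and 193 TPM in Cal51R (195 ± 2.96, SD, n = 2) and 1165 and 1075 TPM in Cal51 (1120 ± 64.1, SD, n = 2), 5.74-fold lower in Cal51R. Nearly all of that difference lay in SLC2A1 and SLC2A3, which together held 74.4 TPM in Cal51R and 991 TPM in Cal51. The remaining SLC2A genes summed to 121 ± 1.65 TPM in Cal51R and 129 ± 3.43 TPM in Cal51 (SD, n = 2 each). The make-up of the family was accordingly unlike in the lines. SLC2A1 made 38.2% and 38.0% of it in Cal51R and 64.4% and 64.5% in Cal51, and SLC2A3 0.0152% and 0% in Cal51R and 24.3% and 23.7% in Cal51. SLC2A6 made 34.0% and 34.5% in Cal51R and 3.98% and 4.13% in Cal51, and SLC2A8 17.3% and 14.8% in Cal51R and 5.55% and 6.01% in Cal51. Counted in CPM, not per length, the family sum was 7.92-fold lower in Cal51R. In CPM, SLC2A8 made 10.5% in Cal51R and 3.21% in Cal51.

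The 14 SLC16A genes summed to 205 and 218 TPM in Cal51R and 531 and 498 TPM in Cal51, 2.43-fold lower in Cal51R (2.87-fold in CPM). SLC16A1 and SLC16A3 together made 67.1% of that sum in Cal51R and 88.0% in Cal51. SLC16A5, a member with less known substrates that is named here after its values were seen, made 22.2% and 21.8% in Cal51R and 6.29% and 5.79% in Cal51. With 2 libraries against 2, an exact two-sided permutation test of such a sum or share cannot go below p = 0.333, so these are given as values.

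**Figure D3:**
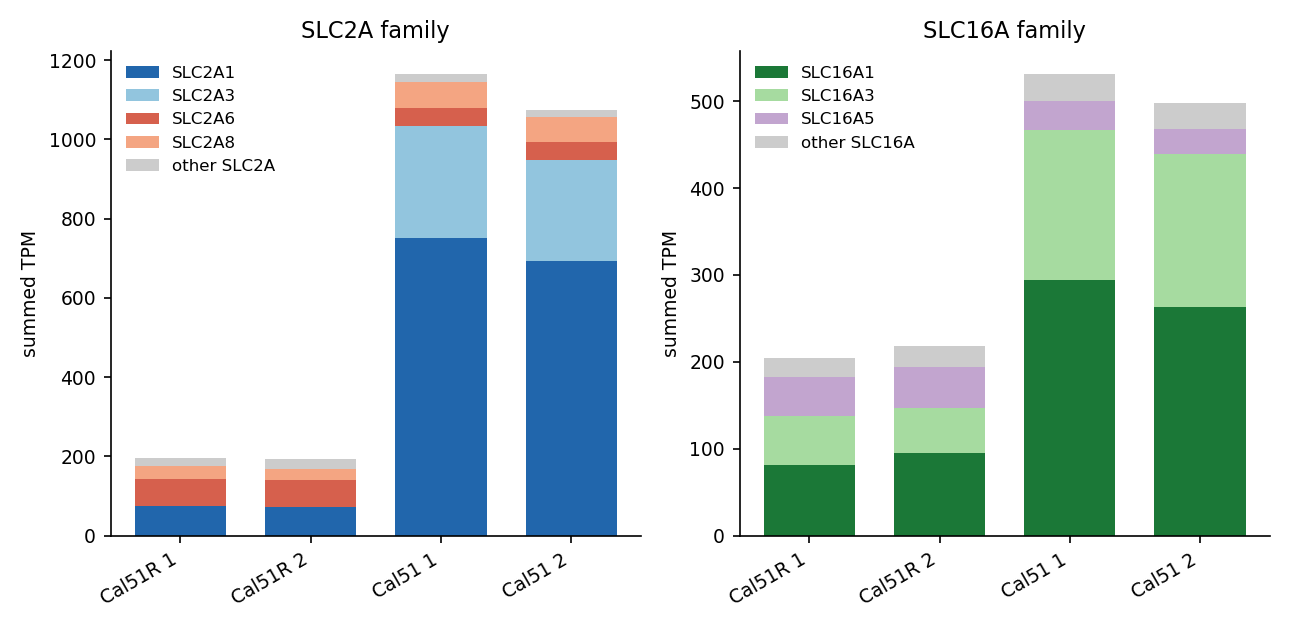
Stacked bars of summed TPM in each library for the 13 SLC2A genes and the 14 SLC16A genes, Cal51R left of Cal51, with the leading members coloured. The SLC2A bars reach 193 to 197 TPM in Cal51R and 1075 to 1165 TPM in Cal51, and the SLC2A3 segment is visible in Cal51 alone.

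Promoter windows from RefSeq (GRCh38.p14) were used for 8 of the 10 carriers, 12 windows in all because SLC16A3 had 5, and those of SLC2A3 and SLC16A1 were not analysed here. The 250 bases before each start were searched on both strands for ACGTG and GCGTG, the core letters of the element to which hypoxia-inducible factors bind, counting matches that overlap. A match stood in 7 of the 12 windows, against 43.2% of all 35116 windows. Of the 7 carriers with 1 window, 4 held a match, against 42.2% of all 22114 genes with 1 window. SLC2A1, SLC2A8 and SLC2A12 held none. Of the 3 windows shown, SLC2A1 had the largest fall among carriers with a window that passed, SLC2A6 was the carrier that rose, and SLC16A3 is given by its second window, chosen after its matches were seen. They run 5′ to 3′ on the strand of the gene, with matches in capitals, at chr1:42958869-42959118 (minus strand), chr9:133479100-133479349 (minus strand) and chr17:82228792-82229041 (plus strand).
SLC2A1: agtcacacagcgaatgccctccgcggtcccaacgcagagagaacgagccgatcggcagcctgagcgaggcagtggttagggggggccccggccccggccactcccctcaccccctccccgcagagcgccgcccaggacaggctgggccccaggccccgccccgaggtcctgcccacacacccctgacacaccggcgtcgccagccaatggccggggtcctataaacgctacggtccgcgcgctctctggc
SLC2A6: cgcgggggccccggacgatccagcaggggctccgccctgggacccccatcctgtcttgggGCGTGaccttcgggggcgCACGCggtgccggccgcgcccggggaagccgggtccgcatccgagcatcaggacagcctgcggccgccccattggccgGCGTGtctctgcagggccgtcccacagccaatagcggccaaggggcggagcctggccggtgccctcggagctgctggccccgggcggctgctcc
SLC16A3: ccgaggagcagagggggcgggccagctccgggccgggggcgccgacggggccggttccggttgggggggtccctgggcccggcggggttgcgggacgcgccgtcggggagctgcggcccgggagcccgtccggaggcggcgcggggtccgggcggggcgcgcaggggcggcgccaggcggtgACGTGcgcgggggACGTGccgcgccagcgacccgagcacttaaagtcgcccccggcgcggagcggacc
SLC2A6 held 3 matches of GCGTG, 190, 172 and 94 bases before the start, and the SLC16A3 window 2 of ACGTG, 68 and 55 bases before it. A match describes letters only, and no binding was measured.

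Genes beside the carriers did not show 1 direction. The counts around each carrier stand against 35.3% of all genes tested that rose and 35.5% that fell. Shares near these are no result about a neighbourhood. Of the 4 other tested genes with centres within 500 kb of that of SLC2A3, 3 rose and 0 fell, with a median log2 fold change of 0.62, and 1 rose without Cal51R replicate 2 or without Cal51 replicate 2. The nearest were NANOG, a pluripotency factor, and FOXJ2 at 0.53. NANOG had 12 and 27 reads in Cal51R and 11 and 5 in Cal51. It is counted among the 3 that rose, but entered the test only through Cal51R and is described by its reads. NANOG was no longer called in DESeq2 (adjusted p = 0.265), without Cal51R replicate 2 (0.462) or without Cal51 replicate 2 (0.248). Around SLC2A1, 7 of 21 genes rose and 7 fell (median 0.11), with ZNF691 at 0.35 and EBNA1BP2 at -0.82 as its nearest neighbours. ZNF691 was not called in DESeq2 (adjusted p = 0.155) or without either Cal51 library (0.0937 and 0.0775), and with library totals 9 of the 21 rose and 4 fell. Around SLC16A1, 5 of 7 fell and 1 rose (median -0.49), the nearest being PPM1J at -2.23 and LRIG2 at -0.50. In limma on log2(TPM + 1), 2 of the 7 fell and 2 rose (median -0.23), and LRIG2 was not called in limma on FPKM or TPM.

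Around SLC16A3, 17 of 33 genes rose and 6 fell (median 0.24), and with library totals 24 rose and 4 fell. Its nearest neighbours that do not overlap it, CCDC57 and CD7, had log2 fold changes of 1.43 and 2.96. Around SLC2A6, 10 of 15 genes fell and 3 rose (median -1.02), although SLC2A6 itself rose. Its neighbour CACFD1 did not pass at -0.21 (edgeR adjusted p = 0.126) but passed without Cal51R replicate 1 (0.00676), and SARDH rose by 1.77. SLC2A8 had 5 of 17 genes that rose and 7 that fell (median -0.13), which library totals turned to 7 that rose and 5 that fell (median 0.07), with GARNL3 at 0.42 and ZNF79 at 0.52 nearest. The call of GARNL3 was lost in DESeq2 (adjusted p = 0.267), without Cal51R replicate 2 (0.115) and without Cal51 replicate 1 (0.271). EYA4 at 1.69 and SGK1 at 0.73 flanked SLC2A12, with SGK1 lost in DESeq2 (0.244), without Cal51R replicate 1 (0.151) and without Cal51 replicate 2 (0.241), and around SLC2A13 neither ABCD2 at 0.13 nor MUC19 at 0.38 passed. Genes that overlap a carrier were not taken as its nearest neighbours. SLC16A3 shares 1068 bases with CSNK1D, at 0.24, and SLC2A12 shares 2852 bases with TBPL1, at -0.16. SLC2A13 overlaps REDIC1, which was not tested. No source used here states that counting used the strand, so reads from such overlaps cannot be told apart.

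**Figure D4:**
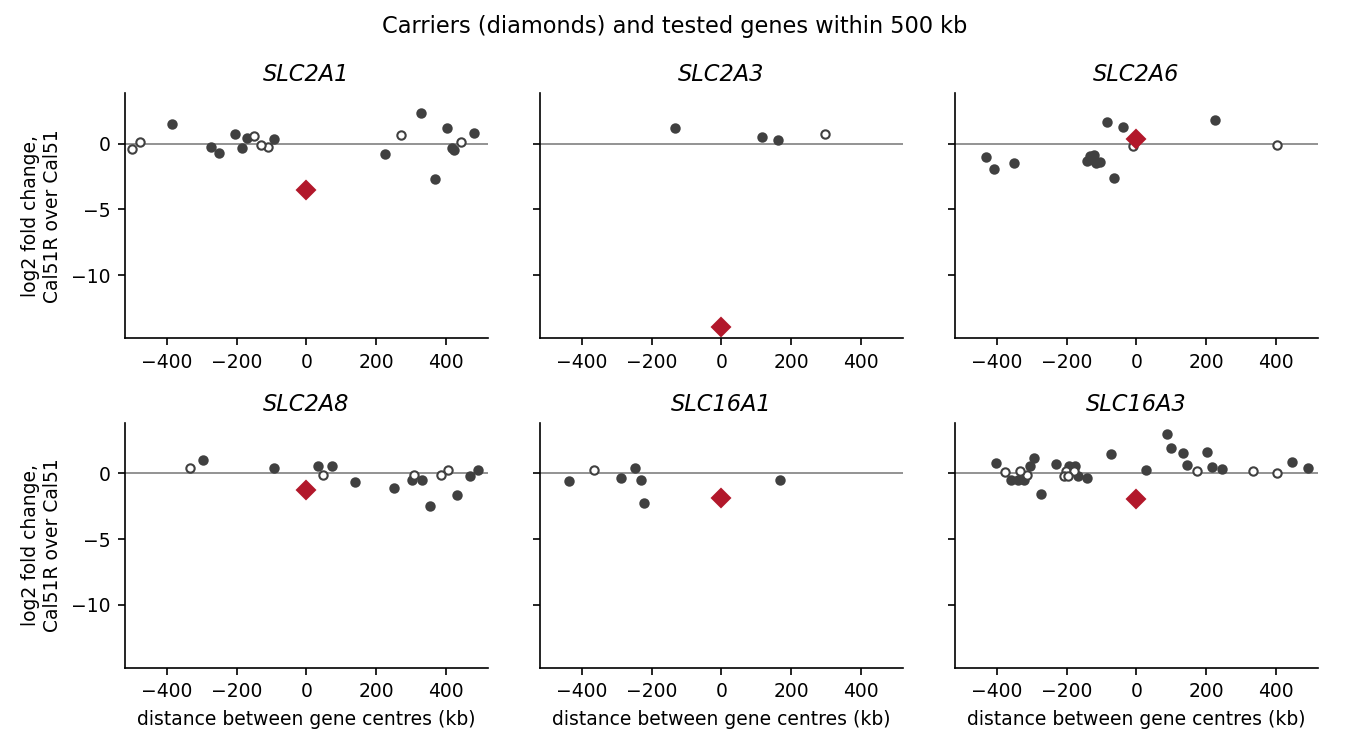
Log2 fold changes (Cal51R over Cal51) of tested genes within 500 kb of 6 carriers, against the distance between gene centres in kb; diamonds are the carriers, and filled points passed while open points did not. SLC2A3 stands below its 4 neighbours, at a fitted value that rests on 1 read in Cal51R, while the neighbours of SLC2A6 have a median of -1.02 below the carrier's 0.34.

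The genes most like a carrier were sought over the 4 libraries by the root mean square difference of log2(CPM + 1) after centring each gene on its mean. For SLC2A1 these were TMEM178A at 0.0384, DPP10 at 0.0385 and HMGA2, a chromatin protein, at 0.0437, at log2 fold changes of -3.83, -8.47 and -3.50 against -3.52 for SLC2A1. DPP10 had 1 and 0 reads in Cal51R and 223 and 192 reads in Cal51, so that it entered the test only through Cal51. Its fitted value depends on the prior count, and it stands that close only on the scale with 1 CPM added. For SLC2A3 they were EMP1, an epithelial membrane protein, at 0.277, the desmosomal cadherin gene DSC3 at 0.448 and SPP1, the gene of osteopontin, at 0.464. EMP1, with 18 and 17 reads in Cal51R, had a log2 fold change of -9.44. DSC3 had 4 and 0 reads in Cal51R and 6098 and 4591 reads in Cal51. SPP1 had 1 and 3 reads in Cal51R and 5684 and 4636 reads in Cal51. DSC3 and SPP1 thus entered the test only through Cal51 and are described by their reads. For SLC16A3 they were TAGLN, an actin-binding protein, at 0.0162, TNS2 at 0.0415 and PPP1R14A at 0.0439, at log2 fold changes of -1.91, -1.92 and -2.06 against -1.95 for SLC16A3. The measure depends on the 1 CPM added, most of all for genes near 0 in a line.

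The calls in the related lists that follow stand against 70.8% of all genes tested that passed, 35.3% that rose and 35.5% that fell, and a share near these is no result about a list. Of the 4 other SLC2A genes tested, 2 rose, 1 fell and 1 did not pass, with a median log2 fold change of 0.74. That median was 0.08 over the 2 genes left when at least 5 CPM in 2 libraries was required, of which 1 rose and 1 fell. SLC2A4, the insulin-regulated carrier, is named here after its values were seen. It had 26 and 27 reads in Cal51R and 16 and 7 reads in Cal51. SLC2A4 is counted among the 2 of 4 that rose, but its reads in Cal51 alone would not have passed the filter. It is therefore described by its reads. Its call was lost in DESeq2 (adjusted p = 0.191), without Cal51R replicate 1 and without Cal51 replicate 2. SLC2A9, a urate carrier, rose by 0.94 and averaged 8.51 ± 0.61 TPM in Cal51R and 3.63 ± 0.05 TPM in Cal51 (SD, n = 2 each). SLC2A11 fell by 0.86 on the log2 scale, and SLC2A5, the fructose carrier, was at 0.55 without passing (edgeR adjusted p = 0.20). Of the 10 other SLC16A genes tested, 2 rose, 5 fell and 3 did not pass (median -0.43), with 1 that rose when either Cal51 library was left out. SLC16A7, which encodes the high-affinity monocarboxylate carrier MCT2, had 2 and 18 reads in Cal51R and 147 and 108 reads in Cal51. Its level was 0.10 ± 0.11 TPM in Cal51R and 1.18 ± 0.17 TPM in Cal51 (SD, n = 2 each). SLC16A13 had 12 and 8 reads in Cal51R and 75 and 83 reads in Cal51. Both genes are counted among the 5 that fell, but entered the test only through Cal51 and are described by their reads. SLC16A8, named here after its values were seen, had 11 and 16 reads in Cal51R and 2 and 4 reads in Cal51. It is counted among the 2 that rose, but entered the test only through Cal51R. SLC16A10, an aromatic amino acid carrier, fell by 0.95, SLC16A6 by 0.81 and SLC16A14 by 0.51 on the log2 scale. The call of SLC16A6 was lost in DESeq2 (adjusted p = 0.0982) and without Cal51 replicate 2 (0.0678), and that of SLC16A14 was lost in limma on FPKM and on TPM.

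Among 9 tested carriers of sugars and monocarboxylates from other families, 3 rose, 3 fell and 3 did not pass (median -0.18, and 0.02 with library totals). Without Cal51R replicate 1, or either Cal51 library, 2 rose. SLC5A4, which encodes the sodium-linked sugar carrier or sensor SGLT3, had 119 and 158 reads in Cal51R and 1 and 1 in Cal51. SLC5A2, named here after its values were seen, had 16 and 15 reads in Cal51R and 8 and 3 in Cal51. Both are counted among the 3 that rose, but entered the test only through Cal51R and are described by their reads. SLC5A3, a sodium-linked myo-inositol carrier, fell by 0.68 on the log2 scale and SLC45A3 by 0.74, while SLC45A1 was at -0.61 without passing (edgeR adjusted p = 0.0656). MPC2, a subunit of the mitochondrial pyruvate carrier, fell by 0.45, a call that was lost in limma on FPKM and TPM.

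Of 11 tested partners and trafficking proteins of the carriers, 6 fell, 3 rose and 2 did not pass (median -0.36). With library totals as the scale the split was 2 that fell and 4 that rose. BSG, the gene of basigin, was among the abundant genes in both lines, at 987 and 920 TPM in Cal51R and 1124 and 1136 TPM in Cal51, and fell by 0.49 on the log2 scale. EMB, the gene of the related chaperone embigin, is named after its values were seen and had at most 1 read in any library. TBC1D4, a Rab regulator that holds GLUT4 vesicles inside the cell, fell by 1.84 on the log2 scale, at 8.52 ± 0.91 TPM in Cal51R and 26.0 ± 3.63 TPM in Cal51 (SD, n = 2 each). STOM, a membrane protein that associates with GLUT1 in red cells, rose by 0.48 and ARRDC4, an arrestin-like protein, by 0.38. SNX27, a sorting nexin, fell by 0.38, a call lost with library totals.

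Of 9 tested enzymes that phosphorylate glucose, remove that phosphate or convert lactate, 6 fell, 2 rose and 1 did not pass (median -0.72). The counts were the same with library totals. G6PC3, which removes the phosphate and is named after its values were seen, was among the 6 and fell by 0.60 on the log2 scale. LDHA, the lactate dehydrogenase subunit known from glycolytic cells, had 904 ± 7.88 TPM in Cal51R and 1835 ± 35.8 TPM in Cal51 (SD, n = 2 each). It fell by 1.27 on the log2 scale. LDHB, named after its values were seen, stood above LDHA by TPM in both lines and fell by 0.72. Its level was 1511.5 ± 36.9 TPM in Cal51R and 2099.4 ± 70.2 TPM in Cal51 (SD, n = 2 each). The hexokinase genes HK1 and HK2 fell by 0.83 and 0.84, and ADPGK, an ADP-dependent glucokinase, by 1.07. HKDC1, a further hexokinase gene named after its values were seen, went the other way and rose by 0.56. It was at 91.7 ± 5.23 TPM in Cal51R and 52.5 ± 5.50 TPM in Cal51 (SD, n = 2 each). LDHD, a mitochondrial D-lactate dehydrogenase, rose by 2.44, at 8.58 ± 1.76 TPM in Cal51R and 1.29 ± 0.54 TPM in Cal51 (SD, n = 2 each).

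The 13 tested regulators are known to act on carrier genes, directly or, as EGLN1, EGLN3 and VHL, through hypoxia-inducible factors. Of these 13, 7 fell, 4 rose and 2 did not pass (median -0.38), and with library totals 5 fell and 4 rose. HIF1A, the hypoxia-inducible factor subunit, rose by 0.68, at 411 ± 44.7 TPM in Cal51R and 217 ± 12.6 TPM in Cal51 (SD, n = 2 each). EPAS1, its relative, fell by 2.12 on the log2 scale at 1.02 ± 0.23 TPM in Cal51R and 3.75 ± 0.62 TPM in Cal51 (SD, n = 2 each). EGLN3, a prolyl hydroxylase of these factors, had 4 and 1 reads in Cal51R and 65 and 54 reads in Cal51. It entered the test only through Cal51 and is described by its reads, though it is counted among the 7 that fell. MYC fell by 1.04 on the log2 scale, at 46.6 ± 0.62 TPM in Cal51R and 81.1 ± 0.57 TPM in Cal51 (SD, n = 2 each), and MLX, a partner of glucose-sensing factors, fell by 0.69. These are RNA levels, and neither protein nor transport was measured.

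**Figure D5:**
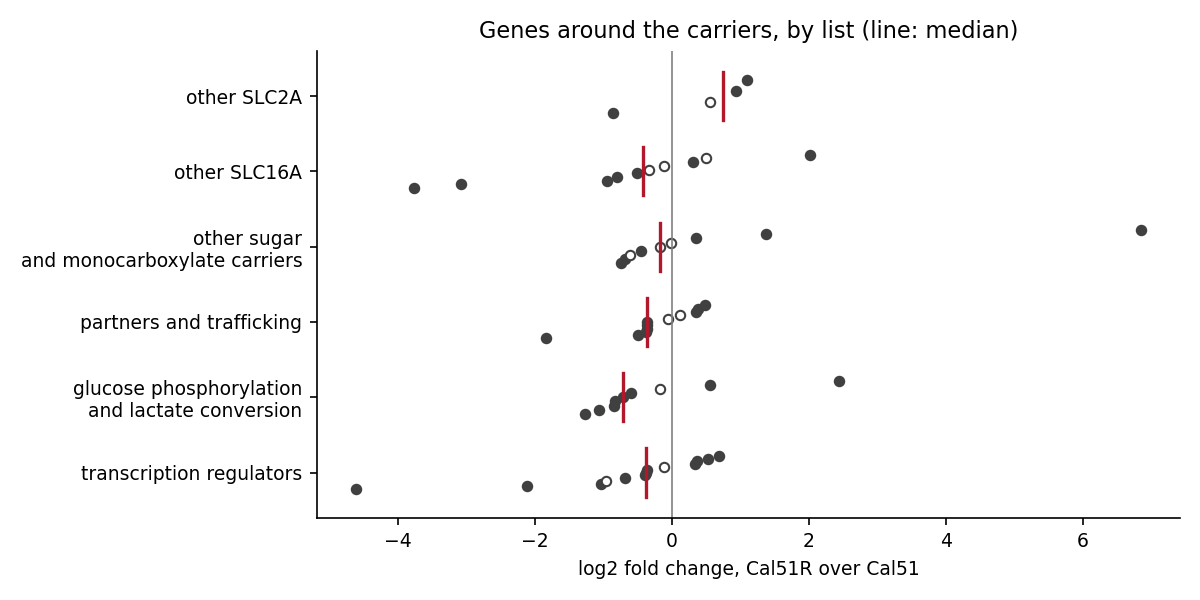
Log2 fold changes (Cal51R over Cal51) of the tested genes in 6 related lists; filled points passed, open points did not, red lines are medians, and the point of SLC5A4 at the far right rests on 1 read in each Cal51 library. The medians run from -0.72 for glucose phosphorylation and lactate conversion to 0.74 for the other SLC2A genes, the last over only 4 genes.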

How the data were processed

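Polyadenylated RNA was sequenced from 2 Cal51R and 2 Cal51 libraries. RSEM 1.2.8, HISAT2 2.1.0, Bowtie2 2.2.5, DESeq and the build hg38 are listed in the submitters' processing notes, which assign them no role. The annotation used for counting is not stated. Per the file headers, the deposited table gives read counts per gene and library, which from their values are the authors' expected counts. Per the file headers, the authors also deposited FPKM and TPM values, used here for levels, shares and alternatives. No source used here mentions molecular identifiers. The exact counting intervals of read ratios cover counting error only. Confidence intervals of log2 fold changes come from the edgeR fit and also take in the spread between replicate libraries.

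Expected counts were rounded and tested with edgeR 4.0.16 in R 4.3.3 (quasi-likelihood test, TMM scaling, filterByExpr with a minimum count of 10, line as the only term). Of 17215 genes, 13674 were tested, 9685 passed at an adjusted p under 0.05, and 3541 were left out. SE is the log2 fold change over the root of F. The fit was also tested on data simulated with the replicate spread found in these libraries. Alternatives used DESeq2 1.42.0, limma 3.58.1, other scalings and filters, the omission of single libraries and a block on replicate number. The same replicate number marks no stated shared batch, and same-numbered deviations correlated at -0.275. The confidence level of counting intervals is 95%.

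The carriers, related lists and rules were chosen with earlier results of these data known. All carriers are named. Of each related list, genes averaging at least 1 CPM were named, at most 5, by absolute log2 fold change. The nearest tested gene on each side within 500 kb that does not overlap the carrier was named too, as were the 3 most similar genes. Gene positions and promoter windows came from RefSeq (GRCh38.p14), which matched 17154 of 17215 genes, and transcripts from GENCODE 29.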

Additional observations from a re-analysis of the deposited data

How the results depend on the processing

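Over the alternatives run, 7 to 9 carriers passed, against 7 as reported, and no carrier changed direction. With no filter on low counts 9 passed, the added calls being SLC2A10 and SLC2A14. The call of SLC2A13 alone changed among the 8 tested. It passed with library totals (log2 fold change 0.38, adjusted p = 0.012), with totals that leave out the 10 highest genes (0.38, adjusted p = 0.0103), in limma on log2(FPKM + 1) (0.27, adjusted p = 0.0481) and without Cal51R replicate 1 (0.28, adjusted p = 0.0419). Its values with each library left out ran from 0.06 to 0.29. Library totals shift the median of all genes by 0.199 on the log2 scale, so that 64.7% of calls are rises, against 49.9% as reported, 63.7% in limma on FPKM and 67.0% on TPM.

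With the replicate number as a block, 7 carriers passed and 8905 genes overall (65.1%), and with crossed pairs, an alternative chosen after seeing the data, 7 carriers and 10657 genes (77.9%). Neither pairing by replicate block changed the call of a carrier. Of the neighbours named, GARNL3 lost its call with the replicate block (adjusted p = 0.0682). CPM in place of TPM moved family shares, in Cal51R to 44.5% for SLC2A1, 28.8% for SLC2A6 and 10.5% for SLC2A8, and in Cal51 to 64.6% for SLC2A1, 2.87% for SLC2A6 and 3.21% for SLC2A8. Depth limits SLC2A3, SLC2A10 and SLC2A14, whose folds rest on few reads.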
